A study of Mus musculus with 12 samples.

Results

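Matrix metalloproteinases (MMPs) and tissue inhibitors of metalloproteinases (TIMPs) were followed in sorted macrophages of the aorta and of fat in mice. The 10 genes described here, Mmp2, Mmp8, Mmp9, Mmp12, Mmp13, Mmp14, Mmp19, Timp1, Timp2 and Timp3, were taken by name, and each matched 1 of the 46517 genes in the count table, 25331 of which had any reads at all. The cells came from adult wild type C57/BL6 mice, 30 for the aorta and 20 for the epididymal and subcutaneous fat. Live leukocytes carrying F4/80, CD11b, MerTK, CD64 and CD45 were sorted and split by LYVE-1, a hyaluronan receptor that marks a subset of tissue macrophages. This gave aorta LYVE1+, aorta LYVE1-, fat LYVE1+ and fat LYVE1- cells, with 3 libraries each and no other treatment. The labels do not say how mice were pooled or whether libraries of equal number shared animals, so p-values measure only the spread between these libraries. Each library is a bulk RNA sample, in which more cells of a kind cannot be told apart from more RNA per cell.

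MMPs are zinc endopeptidases that cut collagen, elastin and other proteins of the extracellular matrix. Most are secreted as inactive proenzymes and work once the propeptide has been cut off, and TIMPs block them by binding the active site. In arteries and in fat, macrophages are among the known sources of both, and MMP activity takes part in matrix turnover there.

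The libraries held 5049936 to 29792301 counts. Fat LYVE1+ library 1 and fat LYVE1- library 1 stood apart from the other 10, with 8.85% and 12.1% of their counts from mitochondrial genes, against 1.79% to 3.2%. Erythroid markers summed to 25100 and 5200 CPM in those libraries, so several results that rest on them are given with and without them. Aorta LYVE1+ libraries 1 and 2 carried the same name prefix as the fat libraries, and aorta LYVE1+ library 3 and the 3 aorta LYVE1- libraries carried another. All 9 markers of the gate and of macrophages, which include Lyve1, Csf1r, Cd68 and Mrc1, were detected in each of the 4 groups. In the aorta Lyve1 had 2741, 2042 and 2803 CPM in LYVE1+ libraries, against 875.5, 1322 and 867 CPM in LYVE1- libraries. In fat it had 1493, 2191 and 2094 CPM against 229.6, 569 and 610.1 CPM. Lyve1 RNA was thus lower but not absent in LYVE1- libraries. In edgeR's test none of the 9 had an adjusted p below 0.05 between the aorta sorts, and 1 was higher in fat LYVE1+ cells. Levels are CPM, the reads of a gene relative to the library total, after scaling by TMM, edgeR's correction for library composition.

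In each of the 4 groups, 9 of the 10 genes had a mean above 1 CPM: Mmp2, Mmp9, Mmp12, Mmp13, Mmp14, Mmp19, Timp1, Timp2 and Timp3. Among the 25331 genes with a count, 49.4% passed that level in aorta LYVE1+ cells, 51% in aorta LYVE1- cells, 49.6% in fat LYVE1+ cells and 50% in fat LYVE1- cells. When every library of a group had to exceed 1 CPM, 7 genes remained in aorta LYVE1+ cells, 9 in aorta LYVE1- cells, 7 in fat LYVE1+ cells and 9 in fat LYVE1- cells. Mmp14 (0.601 CPM) and Timp1 (0.952 CPM) fell short in aorta LYVE1+ library 1, and Mmp13 (0.191 CPM, 1 read) did so in fat LYVE1+ library 1. Timp1 exceeded 1 CPM in only 1 of the 3 fat LYVE1+ libraries. Mmp8, the collagenase of neutrophil granules (chromosome 9, 7558456 to 7568485 in GRCm38), had 6 reads in aorta LYVE1- library 1, 1 read in fat LYVE1- library 1 and none in the other 10. With no reads, 3 reads per library set the limit, which was 0.102 to 0.574 CPM over those 10 libraries. Neutrophil markers were also scarce: the 9 together summed to 0.213 to 1.58 CPM in aorta LYVE1+ cells, against 0.745 to 7.7 CPM in aorta LYVE1- cells, and to 2.82 to 21.6 CPM in fat LYVE1+ cells, against 2.45 to 10.9 CPM in fat LYVE1- cells. Ly6g, a defining neutrophil gene, was at 0 in all 12 libraries.

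**Figure D1:**
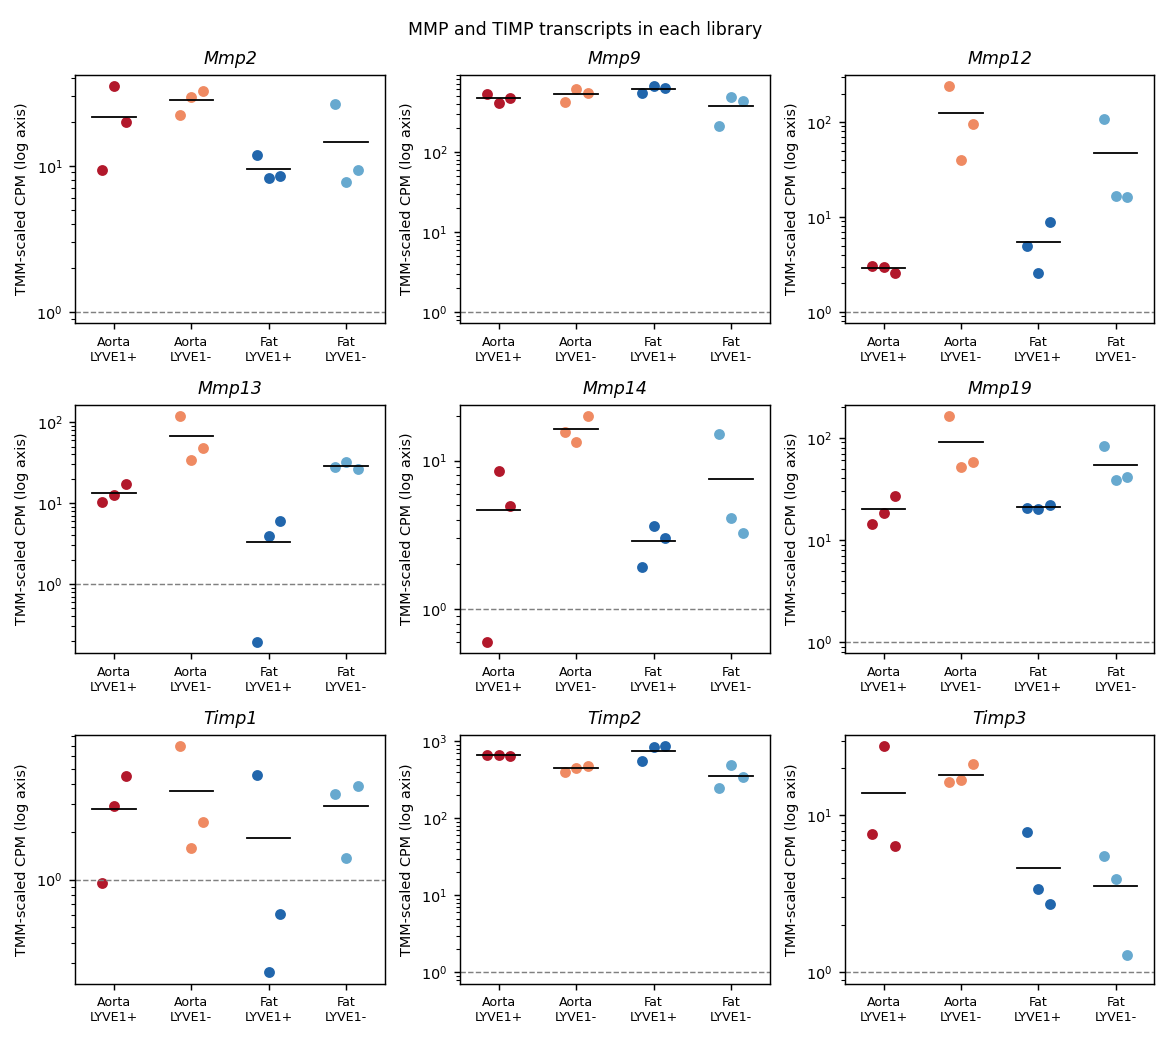
TMM-scaled CPM (log axis) of the 9 genes above 1 CPM in each of the 12 libraries, with points in the order of library number within a group, black lines at group means and a dashed line at 1 CPM. Mmp12, Mmp13 and Mmp19 sit lower in every LYVE1+ library than in any LYVE1- library of the same tissue, and Timp2 sits higher.

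Adjusted p-values below 0.05 in edgeR's quasi-likelihood test, with Benjamini-Hochberg adjustment over all 14216 genes tested, are called. Of the 9 genes tested (Mmp8 was too low), 2 were called lower in LYVE1+ than in LYVE1- cells of the aorta and none higher: Mmp12, the macrophage elastase, and Mmp19, a secreted MMP that cleaves basement membrane proteins. For all genes tested, 0.429% were called lower and 0.113% higher there. In fat 1 gene was called lower, Mmp13, the interstitial collagenase of rodents, and 1 higher, Timp2, which inhibits MMPs and with MMP14 helps activate pro-MMP2. The share of all genes called in fat was 3.93%, with 2.1% lower and 1.82% higher. LYVE1+ and LYVE1- libraries did not overlap for 5 of the 9 genes in the aorta (Mmp12, Mmp13, Mmp14, Mmp19 and Timp2), against 22.4% of all genes. In fat they did not overlap for 5 as well (Mmp9, Mmp12, Mmp13, Mmp19 and Timp2), against 18.9% of all genes. The median log2 fold change of the 9 genes, LYVE1+ over LYVE1-, was -0.40 in the aorta and -0.76 in fat, beside -0.01 and 0.00 for all genes tested.

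Mmp12 and Mmp13 lie close together on chromosome 9, at 7344381 to 7369499 and 7272514 to 7283331 on the plus strand of GRCm38. Their promoters are shown beside that of Timp2 (chromosome 11, 118301069 to 118355740, minus strand), whose transcript level ran the other way. Each window holds 250 bases before and 50 bases after a start site in RefSeq's table (GRCm38.p6), which covers 7 of the 10 genes and lacks Mmp2, Mmp9 and Mmp19. Capitals mark matches to TGANTCA, the core motif of AP-1 (Fos and Jun proteins), and to TATAAA, the letters of a TATA box.

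Mmp13, chr9:7272264-7272563, plus strand: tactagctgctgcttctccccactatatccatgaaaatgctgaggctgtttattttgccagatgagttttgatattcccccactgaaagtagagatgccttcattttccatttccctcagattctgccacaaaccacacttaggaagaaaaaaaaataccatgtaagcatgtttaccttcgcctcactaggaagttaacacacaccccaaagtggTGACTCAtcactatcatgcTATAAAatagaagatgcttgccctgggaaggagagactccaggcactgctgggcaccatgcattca
Mmp12, chr9:7347124-7347423, plus strand: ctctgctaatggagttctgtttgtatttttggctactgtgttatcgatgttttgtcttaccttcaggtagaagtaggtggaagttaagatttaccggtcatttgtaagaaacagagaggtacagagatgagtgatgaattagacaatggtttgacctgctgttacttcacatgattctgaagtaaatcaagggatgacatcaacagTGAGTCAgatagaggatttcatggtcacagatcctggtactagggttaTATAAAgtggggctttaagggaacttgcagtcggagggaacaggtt
Timp2, chr11:118355362-118355661, minus strand: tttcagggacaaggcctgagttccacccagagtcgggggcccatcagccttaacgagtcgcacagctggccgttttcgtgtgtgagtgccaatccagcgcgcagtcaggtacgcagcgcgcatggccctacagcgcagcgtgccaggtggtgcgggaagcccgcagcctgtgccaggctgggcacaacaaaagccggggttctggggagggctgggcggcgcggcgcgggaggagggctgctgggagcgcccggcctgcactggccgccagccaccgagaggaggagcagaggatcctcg

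On both strands, TGANTCA occurred in 7.81% and TATAAA in 13.6% of all 32851 promoter windows of this length. Mmp13 held TGACTCA from base -35 and TATAAA from base -16, with the start site as base 1. Mmp12 held TGAGTCA from base -44 and TATAAA from base 5, which lies after this annotated start, while the window of its other annotated start, at 7344147 to 7344446, held neither. Timp2, Timp1, Timp3 and Mmp14 held neither, and Mmp8 held only a TATA match on the minus strand. The Timp2 window was 68.7% G and C with 25 CpG, against 43.7% with 1 CpG for Mmp13 and 40.7% with 3 CpG for this Mmp12 window, and medians of 52.7% and 7 CpG over all windows.

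Mmp12 had 3.06, 3.00 and 2.56 CPM in aorta LYVE1+ libraries 1 to 3, against 241, 40.1 and 95.5 CPM in aorta LYVE1- libraries 1 to 3. The LYVE1+ libraries lay within a narrow band, and every LYVE1- library was above all of them, with a wide spread. The log2 fold change was -5.44 (SE 0.88), or 43.4-fold lower in LYVE1+ cells (adjusted p = 0.0137, edgeR). In fat it had 4.98, 2.60 and 8.96 CPM in LYVE1+ libraries and 107, 16.8 and 16.3 CPM in LYVE1- libraries. The groups did not overlap, but the fold change of -3.07 (SE 0.82) missed the threshold (adjusted p = 0.057), and fat LYVE1- library 1 alone held the high value. Without that library it was -1.58 (adjusted p = 0.27), and without both fat libraries numbered 1 it was -1.54 (adjusted p = 0.27). Equal-numbered libraries of fat deviated together, but so did fat libraries 2 and 3 of unequal number (correlations 0.192 and 0.225). With the number as a block, which the main fit left out, Mmp12 was called lower in fat (log2 fold change -2.56, SE 0.63, adjusted p = 0.041). The fat value was also called without aorta LYVE1- library 1 (adjusted p = 0.043) or 2 (0.046), and without fat LYVE1- library 2 (0.041) or 3 (0.047). DESeq2 and the edgeR fit without a filter called Mmp12 lower in fat as well.

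The aorta call of Mmp12 ended without aorta LYVE1+ library 1 (adjusted p = 0.12), 2 (0.066) or 3 (0.099) and without aorta LYVE1- library 1 (0.055), where the log2 fold change was -4.55. With prefix as a covariate its value was -5.61 (SE 1.5, adjusted p = 0.53). Aorta LYVE1+ library 3, the only LYVE1+ library with the prefix of the aorta LYVE1- libraries, had 2.56 CPM. The sum of 8 eosinophil markers moved with Mmp12 in the aorta. It was 5.06 to 5.26 CPM in LYVE1+ libraries, with Prg2, Epx, Ear1 and Ear6 at 0, and 47.6 to 144 CPM in LYVE1- libraries, with none at 0 in all 3. Ear2 was most of the LYVE1- sums there, with 1.9, 1.65 and 3.41 CPM in LYVE1+ libraries against 114, 34.2 and 47 CPM. The other 7 summed to 3.16, 3.6 and 1.78 CPM against 30.1, 13.3 and 10.6 CPM. Of these, only Prg2 and Epx were higher in every LYVE1- library than in any LYVE1+ library. Ccr3, Siglecf and Il5ra overlapped. Ear1 was also at 0 in aorta LYVE1- library 2, and Ear6 in aorta LYVE1- library 3. In fat the 8 eosinophil markers summed to 9.06 to 97.6 CPM in LYVE1+ libraries, with Epx at 0, and to 141 to 364 CPM in LYVE1- libraries, with Epx and Ear6 at 0. Ear2 alone carried the fat difference, with 57.4, 6.84 and 2.72 CPM in LYVE1+ libraries against 342, 140 and 130 CPM in LYVE1- libraries, while the other 7 markers summed to 40.2, 10 and 6.34 CPM in fat LYVE1+ libraries, against 22.4, 5.59 and 10.5 CPM in fat LYVE1- libraries. The 8 mast cell markers summed to 2.71 to 14.6 CPM in aorta LYVE1+ libraries, with Kit, Tpsab1 and Ms4a2 at 0, and to 51.1 to 80.8 CPM in aorta LYVE1- libraries, with Ms4a2 at 0. In fat they overlapped, at 2.82 to 53.8 CPM in LYVE1+ libraries, with Ms4a2 at 0, and 10.8 to 20.2 CPM in LYVE1- libraries, with Tpsab1 and Ms4a2 at 0. The 8 dendritic cell markers summed to 309 to 337 CPM in aorta LYVE1+ libraries, with Clec9a at 0, and to 407 to 507 CPM in aorta LYVE1- libraries, with none at 0. In fat these sums overlapped too, at 423 to 538 CPM in LYVE1+ libraries and 238 to 505 CPM in LYVE1- libraries, with none at 0. The sum hides a split there. Of the 8, 4 had a positive and 4 a negative log2 fold change, and 2 were called higher in LYVE1+ cells, where 1.82% of all genes were. Cd209a had 216, 308 and 319 CPM in fat LYVE1+ libraries, against 194, 163 and 154 CPM in fat LYVE1- libraries. Clec9a ran the other way, at 0.574, 0.0866 and 0.705 CPM against 5.235, 1.27 and 1.19 CPM. The part of these cells in the Mmp12, Mmp13 and Mmp19 values was not tested. Mmp12 shares 157 exon bases with Mmp1b on the other strand, and Mmp1b had no reads in any library.

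Mmp13 had 10.2, 12.5 and 17 CPM in aorta LYVE1+ libraries, against 119, 34.5 and 48.2 CPM in aorta LYVE1- libraries. All LYVE1+ values were below all LYVE1- values, and the log2 fold change of -2.35 (SE 0.54) was not called (adjusted p = 0.0901). It was called without fat LYVE1+ library 1 (adjusted p = 0.0089), a library of neither group compared, and when the aorta groups were fitted alone (adjusted p = 0.024). In fat Mmp13 had 0.191, 3.90 and 5.94 CPM in LYVE1+ libraries and 27.6, 32.1 and 26.7 CPM in LYVE1- libraries. The fat LYVE1- libraries were close to each other, and library 1, which was high for Mmp12, was not high for Mmp13. In fat the log2 fold change was -2.99 (SE 0.60), or 7.94-fold lower in LYVE1+ cells (adjusted p = 0.0137, edgeR). Without both fat libraries numbered 1 it was -2.59 (adjusted p = 0.01), and the call ended without fat LYVE1+ library 2 (adjusted p = 0.069) or when the fat groups were fitted alone (adjusted p = 0.078).

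Mmp19 (chromosome 10, 128790910 to 128800824, plus strand) had 14.4, 18.3 and 26.9 CPM in aorta LYVE1+ libraries and 163, 52.0 and 57.6 CPM in aorta LYVE1- libraries. As with Mmp12 and Mmp13, aorta LYVE1- library 1 was the highest of the 12. The log2 fold change was -2.19 (SE 0.43), or 4.57-fold lower in LYVE1+ cells (adjusted p = 0.045, edgeR). Without aorta LYVE1- library 1 it was -1.47 (adjusted p = 0.16), and without aorta LYVE1+ library 1, 2 or 3 the adjusted p was 0.26, 0.15 and 0.098. The call also ended without aorta LYVE1- library 3 (adjusted p = 0.056), fat LYVE1+ library 2 (0.058) or 3 (0.06), or fat LYVE1- library 2 (0.057) or 3 (0.066), and with the prefix in the model (log2 fold change -1.75, SE 0.64, adjusted p = 0.75). In fat it had 20.7, 20.3 and 22.2 CPM in LYVE1+ libraries and 82.9, 38.7 and 41.5 CPM in LYVE1- libraries. The fat libraries did not overlap either, and the log2 fold change of -1.37 (SE 0.43) was not called (adjusted p = 0.109). Without aorta LYVE1- library 1 that value was called (adjusted p = 0.029), and without both fat libraries numbered 1 it was -0.92 (adjusted p = 0.33). DESeq2 and the edgeR fit without a filter also called Mmp19 lower in fat. Mmp19 shares 22.3% of its exon bases with Tmem198b on the other strand, which Smart-seq2 reads cannot separate. Tmem198b had 19.4 to 35.7 CPM over the 12 libraries and log2 fold changes of 0.05 in the aorta and -0.15 in fat, neither called.

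Neither gelatinase was called. Mmp9 (gelatinase B, chromosome 2, 164940780 to 164955850) had 530, 405 and 467 CPM in aorta LYVE1+ libraries and 413, 605 and 540 CPM in aorta LYVE1- libraries. The groups overlapped, with a log2 fold change of -0.15 (SE 0.26, adjusted p = 0.876). In fat Mmp9 had 535, 666 and 628 CPM in LYVE1+ libraries and 208, 479 and 434 CPM in LYVE1- libraries. Here the LYVE1+ libraries were all above the LYVE1- libraries, with a log2 fold change of 0.71 (SE 0.26) that was not called (adjusted p = 0.185). Over the alternatives this Mmp9 value ran from 0.42 to 0.92 and was called in none. Mmp2 (gelatinase A, chromosome 8, 92827291 to 92853420) had 9.32, 35.2 and 20.0 CPM in aorta LYVE1+ libraries and 22.4, 29.6 and 32.7 CPM in aorta LYVE1- libraries. Its fat values were 11.9, 8.31 and 8.46 CPM in LYVE1+ libraries and 26.6, 7.74 and 9.35 CPM in LYVE1- libraries. Mmp2 overlapped in both tissues, with log2 fold changes of -0.40 (SE 0.47) in the aorta and -0.61 (SE 0.50) in fat, and neither was called. The aorta value was -0.95 without aorta LYVE1+ library 2 and -0.03 without aorta LYVE1+ library 1. The fat value turned to 0.14 without fat LYVE1- library 1.

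Mmp14 (chromosome 14, 54431612 to 54445364), a membrane-bound collagenase that activates pro-MMP2 at the cell surface, was low. It had 0.601, 8.48 and 4.97 CPM in aorta LYVE1+ libraries and 15.5, 13.4 and 19.9 CPM in aorta LYVE1- libraries. The aorta groups did not overlap, and the log2 fold change of -1.81 (SE 0.73) was not called (adjusted p = 0.359). In fat it had 1.91, 3.64 and 3.02 CPM in LYVE1+ libraries and 15.1, 4.12 and 3.28 CPM in LYVE1- libraries. The fat difference of -1.35 (SE 0.75, adjusted p = 0.438) rested on fat LYVE1- library 1, and was -0.34 without it.

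Timp2 was the only inhibitor called. It had 669, 674 and 655 CPM in aorta LYVE1+ libraries and 403, 456 and 486 CPM in aorta LYVE1- libraries. The LYVE1+ libraries were nearly equal and all higher, and the log2 fold change of 0.57 (SE 0.23) was not called (adjusted p = 0.354). It was called when the aorta groups were fitted alone (adjusted p = 0.04) and without both fat libraries numbered 1 (adjusted p = 0.028). Fat LYVE1+ libraries had 555, 857 and 866 CPM of Timp2, and fat LYVE1- libraries had 251, 488 and 341 CPM. Library 1 was the lowest of each fat group, and the groups did not overlap. In fat Timp2 was 2.11-fold higher in LYVE1+ cells (adjusted p = 0.0198, log2 fold change 1.08, SE 0.23, edgeR). Without both fat libraries numbered 1 the value was 1.05 (adjusted p = 0.0014). The call ended without fat LYVE1+ library 2 (adjusted p = 0.1) or 3 (0.1), without fat LYVE1- library 1 (0.055) or 3 (0.086), and when the fat groups were fitted alone (0.13).

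Timp1 and Timp3 were low, and neither was called in any comparison by edgeR's test. Timp1 (chromosome X, 20870166 to 20874735), a secreted inhibitor that binds pro-MMP9, had 0.952, 2.93 and 4.48 CPM in aorta LYVE1+ libraries and 6.94, 1.59 and 2.30 CPM in aorta LYVE1- libraries. Its fat values were 4.6, 0.26 and 0.604 CPM in LYVE1+ libraries and 3.45, 1.37 and 3.88 CPM in LYVE1- libraries. These rest on 3 to 104 reads per library, and LYVE1+ and LYVE1- libraries overlapped in both tissues, with log2 fold changes of -0.37 (SE 0.91) in the aorta and -0.76 (SE 0.97) in fat. The fat value was -2.73 (adjusted p = 0.11) without fat LYVE1+ library 1 and -2.60 (adjusted p = 0.19) without both fat libraries numbered 1. Timp3 (chromosome 10, 86300372 to 86349506), which binds to the matrix and also inhibits ADAM17, had 7.62, 27.6 and 6.40 CPM in aorta LYVE1+ libraries and 16.3, 16.8 and 21.3 CPM in aorta LYVE1- libraries. In fat it had 7.85, 3.38 and 2.72 CPM in LYVE1+ libraries and 5.49, 3.92 and 1.29 CPM in LYVE1- libraries. For Timp3 the LYVE1+ and LYVE1- libraries overlapped in both tissues, with log2 fold changes of -0.39 (SE 0.58) in the aorta and 0.35 (SE 0.63) in fat. Aorta LYVE1+ library 2 was the highest of the 12, and without it the aorta value was -1.37 (adjusted p = 0.45). The fat value was -0.20 without fat LYVE1+ library 1.

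**Figure D2:**
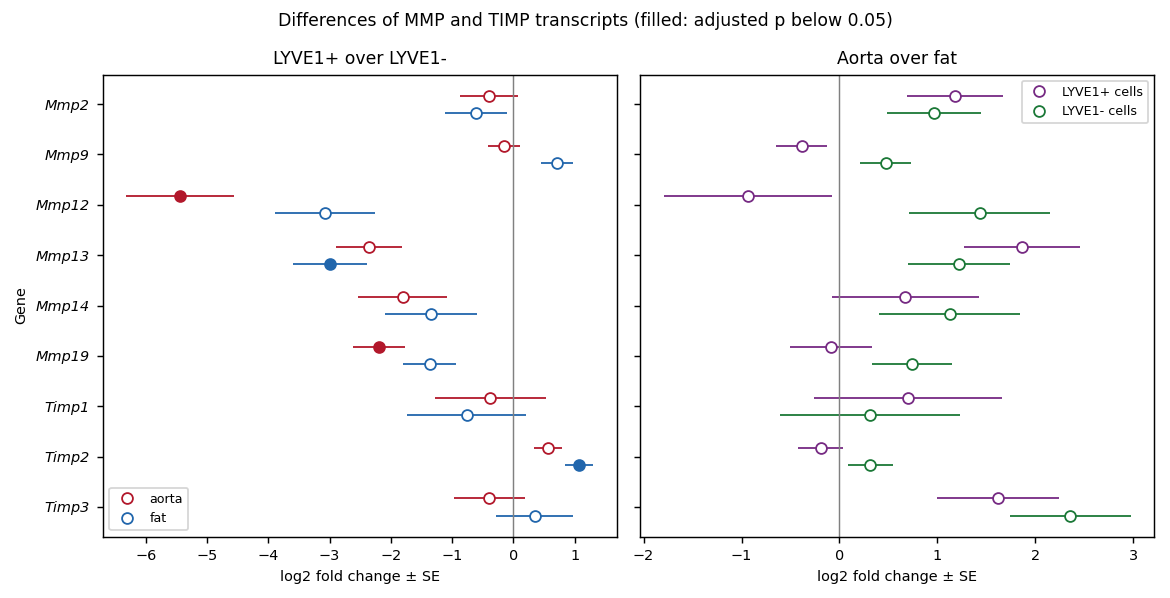
Log2 fold changes of the 9 tested genes with standard errors as bars, LYVE1+ over LYVE1- in each tissue on the left and aorta over fat in each sort on the right, with filled points for adjusted p below 0.05. The filled points are Mmp12 (-5.44) and Mmp19 (-2.19) in the aorta and Mmp13 (-2.99) and Timp2 (1.08) in fat, and no point is filled on the right.

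Levels of different genes were compared per kilobase of exon. Timp2 and Mmp9 were the highest of the 10 in every group. In aorta LYVE1+ cells Timp2 averaged 171 ± 2.54 and Mmp9 132 ± 17.7 CPM per kb, and in aorta LYVE1- cells Timp2 averaged 115 ± 10.7 and Mmp9 147 ± 27.5 (SD, n = 3). In fat LYVE1+ cells Timp2 averaged 195 ± 45.4 and Mmp9 172 ± 19 CPM per kb, and in fat LYVE1- cells Timp2 averaged 92.5 ± 30.7 and Mmp9 106 ± 41, so that in both fat groups their means were closer than the larger SD. Next in aorta LYVE1+ cells came Mmp2 (6.38 ± 3.86 CPM per kb), Mmp19 (5.63 ± 1.82) and Mmp13 (4.94 ± 1.3), which lay within each other's spread. In aorta LYVE1- cells Mmp19 (25.7 ± 17.6 CPM per kb), Mmp13 (25.2 ± 17) and Mmp12 (17.3 ± 14.3) came next, also within their spread. Behind Timp2 and Mmp9, Mmp19 came next in fat as well, with 5.95 ± 0.282 CPM per kb in LYVE1+ cells and 15.4 ± 7 in LYVE1- cells. In fat LYVE1- cells Mmp13 (10.8 ± 1.07) followed within the SD of Mmp19, and Mmp12 (6.45 ± 7.21) within its own SD of Mmp13. Mmp12, at 0.397 ± 0.0378 CPM per kb, was the lowest in aorta LYVE1+ cells apart from Mmp8. That rank depends on the length used, which joins all annotated exons and was 7237 bases for Mmp12. In CPM the Mmp12 mean there (2.87) was above that of Timp1 (2.79).

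Summed over the 7 MMPs, levels per kb were 136 to 161 in aorta LYVE1+ libraries and 213 to 250 in aorta LYVE1- libraries, and 162 to 199 in fat LYVE1+ libraries and 118 to 164 in fat LYVE1- libraries. The 3 TIMPs summed to 174 to 180 in aorta LYVE1+ libraries and 113 to 130 in aorta LYVE1- libraries, and to 149 to 223 in fat LYVE1+ libraries and 69 to 127 in fat LYVE1- libraries. Mmp9 made up 83.8% to 93.1% of the MMP sum in aorta LYVE1+ libraries and 46.7% to 79.4% in aorta LYVE1- libraries, and 93.3% to 94.7% in fat LYVE1+ libraries and 49.9% to 82.7% in fat LYVE1- libraries. Timp2 made up 91.3% to 99.7% of the TIMP sum over the 12 libraries. Mmp12, Mmp13 and Mmp19 together made up 5.16%, 7.52% and 9.36% of the MMP sum in aorta LYVE1+ libraries, against 49.5%, 15.4% and 22.3% in aorta LYVE1- libraries. In fat they made up 4.09%, 3.8% and 5.12% in LYVE1+ libraries, against 41.2%, 15.5% and 16% in LYVE1- libraries. The TIMP sums thus follow Timp2, while in LYVE1- libraries numbered 1 these 3 genes held more of the MMP sum than Mmp9 in the aorta and less in fat. The ratio of the MMP to the TIMP sum was 0.926, 0.759 and 0.880 in aorta LYVE1+ libraries, against 2.21, 1.78 and 1.64 in aorta LYVE1- libraries. In fat it was 1.09, 0.901 and 0.852 in LYVE1+ libraries, against 1.71, 1.28 and 1.63 in LYVE1- libraries. LYVE1+ and LYVE1- libraries did not overlap in either tissue, and the ratio is given as a description of transcripts, with no test.

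**Figure D3:**
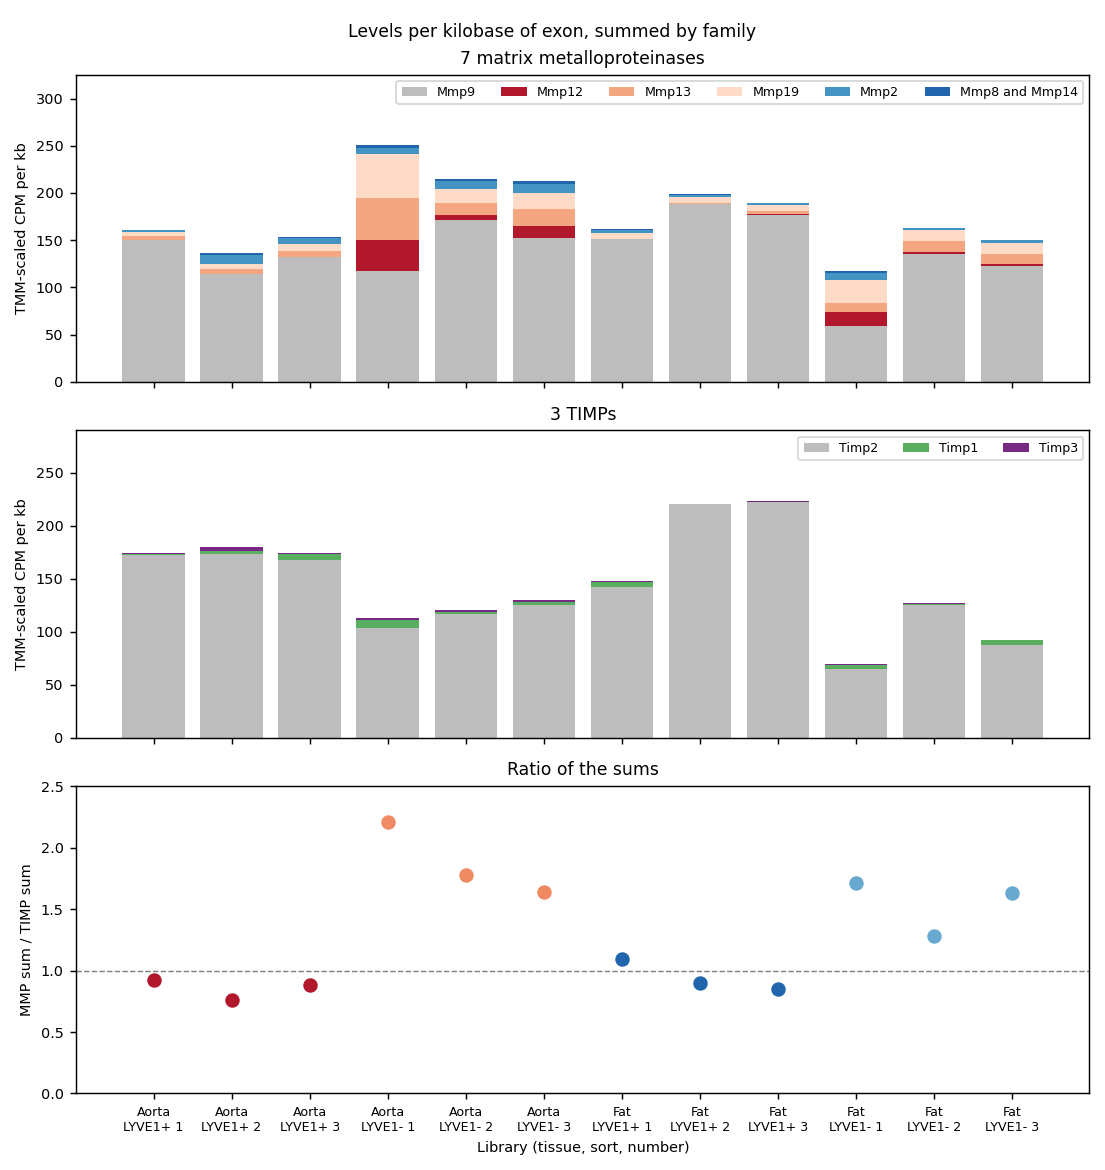
TMM-scaled CPM per kilobase of exon in each library, stacked over 7 MMPs (top) and 3 TIMPs (middle), with the ratio of the sums below and a dashed line at a ratio of 1. The ratio is 0.759 to 1.09 in LYVE1+ libraries and 1.28 to 2.21 in LYVE1- libraries, with Timp2 (grey) at 91.3% to 99.7% of the TIMP bars and Mmp9 (grey) at 46.7% to 94.7% of the MMP bars.

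No MMP or TIMP was called between aorta and fat. In LYVE1+ cells 0 of the 9 genes were called by edgeR's quasi-likelihood test and 0 by DESeq2, with 3 under an unadjusted p of 0.05, while 1.88% of all genes were called higher and 1.12% lower in the aorta. In LYVE1- cells edgeR's test called 0 and DESeq2 called 1 (Timp3, adjusted p = 0.004), with 2 under an unadjusted p of 0.05, while 2.48% of all genes were called, 1.66% higher and 0.823% lower. Aorta and fat libraries did not overlap for Mmp9 and Mmp13 in LYVE1+ cells, against 20.6% of all genes, and for Mmp13 and Timp3 in LYVE1- cells, against 21.1%. The median log2 fold change of the 9 genes, aorta over fat, was 0.67 in LYVE1+ cells and 0.97 in LYVE1- cells, beside -0.02 and 0.00 for all genes tested. In LYVE1- cells all 9 values were positive, and none of the 9 passed the threshold.

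Mmp13 had the largest difference of the 9 between tissues in LYVE1+ cells, with 10.2 to 17 CPM in the aorta against 0.191 to 5.94 CPM in fat and a log2 fold change of 1.86 (SE 0.59, adjusted p = 0.126). That rank rested on fat LYVE1+ library 1. Without it Mmp13 was 1.43 (adjusted p = 0.14), below Timp1 at 2.67 (adjusted p = 0.17) and Timp3 at 2.18 (adjusted p = 0.11), all by edgeR's test. Timp3 had the largest in LYVE1- cells, with 16.3 to 21.3 CPM in the aorta against 1.29 to 5.49 CPM in fat and a log2 fold change of 2.36 (SE 0.62, adjusted p = 0.0708). It was called without aorta LYVE1+ library 2 (adjusted p = 0.033) or fat LYVE1+ library 1 (0.038), without both fat libraries numbered 1 (0.024), and with only the LYVE1- groups in the fit (0.034). In LYVE1+ cells the Timp3 difference was 1.62 (SE 0.62, adjusted p = 0.215), and 0.63 (adjusted p = 0.69) without aorta LYVE1+ library 2. Timp1 differed by 0.70 (SE 0.96, adjusted p = 0.806) in LYVE1+ cells, and by 2.67 (adjusted p = 0.17) without fat LYVE1+ library 1. Mmp12 was 1.43 (SE 0.72, adjusted p = 0.372) on the log2 scale in LYVE1- cells, and 2.92 (adjusted p = 0.031) without fat LYVE1- library 1. Without both fat libraries numbered 1, Mmp12 (2.92, adjusted p = 0.016) and Mmp2 (1.72, adjusted p = 0.034) were called in LYVE1- cells as well. All aorta LYVE1- libraries carried a prefix other than that of the fat LYVE1- libraries, so tissue and prefix cannot be told apart between these groups. With the prefix in edgeR's model Mmp12 was 1.68 (SE 1.6, adjusted p = 0.94) and Mmp2 1.12 (SE 0.91, adjusted p = 0.92). The adjusted p of Timp3 ran from 0.0011 to 0.54 over all alternatives. The sum of fibroblast markers, 10 genes with none at 0, moved with Timp3 and Mmp2 between tissues. Aorta LYVE1+ libraries held 906 to 2570 CPM, against 467 to 728 CPM for fat LYVE1+. Aorta LYVE1- libraries held 1380 to 2400 CPM, against 580 to 1120 CPM for fat LYVE1-. Col1a1, Col1a2 and Col3a1 made up most of each sum. Of the 10 markers, 9 had a positive log2 fold change, aorta over fat, in each sort. Libraries did not overlap for 4 of them in LYVE1+ cells, against 20.6% of all genes, and for 6 in LYVE1- cells, against 21.1%. By edgeR's test 3 of the 10 were called higher in the aorta in LYVE1+ cells, where 1.88% of all genes were. In LYVE1- cells 2 were, beside 1.66% of all genes. Dpt overlapped in both sorts, with 13.8, 35.8 and 13.9 CPM in aorta LYVE1+ against 29.9, 17.7 and 22.6 CPM in fat LYVE1+ libraries. Smooth muscle markers, 8 genes, summed to 35 to 70.9 CPM in aorta LYVE1+ libraries, with none at 0, and 13.8 to 33.5 CPM in fat LYVE1+ libraries, with Cnn1 at 0. In LYVE1- cells they summed to 42.2 to 104 CPM in the aorta, with none at 0, and 11.4 to 16.2 CPM in fat, with Myocd at 0. Their part in the tissue values was not tested. Timp3 shares 21.3% of its exon bases with Syn3 on the other strand, which had at most 0.504 CPM in any library.

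Whether the LYVE1 difference itself depended on the tissue was tested by the interaction, the aorta log2 fold change minus the fat one. By edgeR's quasi-likelihood test 0 of the 9 genes were called and DESeq2 also called 0, with 1 under an unadjusted p of 0.05, where 0.155% of all genes were called, 0.148% with a higher value and 0.00703% with a lower one. That gene was Mmp9, with a difference of -0.86 (SE 0.37, adjusted p = 0.806). In edgeR's test it was -0.57 (SE 0.25, adjusted p = 0.58) without fat LYVE1- library 1. Without both fat libraries numbered 1 it was -0.65 (SE 0.23, adjusted p = 0.36). The largest of the 9 was that of Mmp12, at -2.37 (SE 1.1, adjusted p = 0.826), and for Mmp13, Mmp19 and Timp2 the differences were 0.64 (SE 0.77), -0.83 (SE 0.59) and -0.50 (SE 0.32). For Mmp12 it was -3.85 (SE 0.86, adjusted p = 0.15) without fat LYVE1- library 1. Without both fat libraries numbered 1 it was -3.9 (SE 0.91, adjusted p = 0.1, edgeR's test). So a call in only 1 of the tissues, as for these 4 genes, was not shown to be a difference between tissues.

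**Figure D4:**
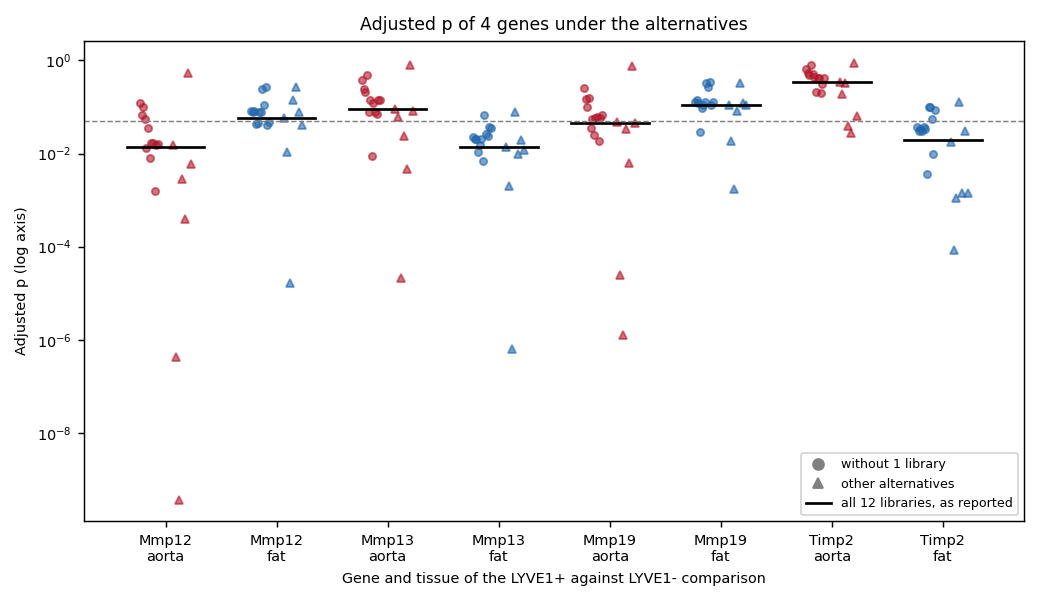
Adjusted p (log axis) of Mmp12, Mmp13, Mmp19 and Timp2 for LYVE1+ against LYVE1- cells, with black lines for the fit of all 12 libraries, circles for fits without 1 library, triangles for other alternatives and a dashed line at 0.05. Points of every column lie on both sides of the dashed line.

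The genes whose profile over the 12 libraries was nearest to a called member were found by the root mean square (RMS) difference of centred log2 CPM, among 8937 genes whose average log2 CPM reached 3. Nearest to Timp2 were Gstm1, a glutathione transferase, Tgfbr2, a TGF-beta receptor, and Idh2, the mitochondrial isocitrate dehydrogenase, at RMS differences of 0.142, 0.143 and 0.156, where the SD of Timp2 itself was 0.531. Nearest to Mmp19 were Glipr1, Pik3cb, a catalytic subunit of PI3 kinase, and Itpkb, an inositol trisphosphate kinase, at 0.323, 0.448 and 0.460, where the SD of Mmp19 was 1.03. For Mmp12 the nearest were Grk3, a kinase of G protein-coupled receptors, Cadm1, an adhesion molecule, and Itgax, the CD11c integrin, at 1.11, 1.11 and 1.17 with an SD of 2.30. Itgax averaged 1.11 CPM in aorta LYVE1+ cells, against 41.3 CPM in aorta LYVE1- cells. In fat its mean was 6.72 CPM in LYVE1+ cells, against 35.4 CPM in LYVE1- cells. For Mmp13 they were Aspm, a spindle pole protein, Ctnnd2, a catenin, and Arap3, a GTPase-activating protein, at 0.966, 1.19 and 1.21 with an SD of 2.16. The Mmp13 profile includes fat LYVE1+ library 1, with 1 read. Aspm averaged 8.37 CPM in aorta LYVE1+ and 10.5 CPM in aorta LYVE1- cells, against 2.49 and 10.9 CPM in fat. Profiles of Mmp12 and Mmp13 were thus less closely matched than those of Timp2 and Mmp19, relative to their own spread in log2 CPM.

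Of the other MMPs and Timp4, 17 genes, 9 were tested and none was called in any of the 5 comparisons by edgeR's quasi-likelihood test. At an unadjusted p below 0.05 there were 2 in the aorta and 3 in fat between LYVE1+ and LYVE1- cells, 0 between tissues in either sort and 1 in the interaction, and DESeq2 called 1 (Mmp25, in fat). Mmp1a, Mmp1b, Mmp10 and Mmp20 had no reads. The most abundant were Mmp23 and Mmp3 (stromelysin 1). Mmp23 averaged 3.71 ± 1.77 CPM in aorta LYVE1+ and 5.20 ± 2.04 CPM in aorta LYVE1- cells. In fat its mean was 1.76 ± 0.466 CPM in LYVE1+ and 5.99 ± 4.66 CPM in LYVE1- cells. Mmp3 averaged 2.03 to 5.76 CPM over the 4 groups, with the lowest mean in fat LYVE1+ cells.

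Among 13 tested genes of MMP activation, binding and clearance, 3 were called lower in LYVE1+ than in LYVE1- cells of fat, where 2.1% of all genes were, and none higher, and none was called in the aorta, where 5 had an unadjusted p below 0.05 and DESeq2 called 2 (Furin and Cldn1). Furin, which cuts the propeptide of pro-MMP14, averaged 78.6 ± 23.1 CPM in fat LYVE1+ and 185 ± 71 CPM in fat LYVE1- cells (adjusted p = 0.0223, log2 fold change -1.24, SE 0.27). Cd44, a hyaluronan receptor that holds MMP9 and MMP14 at the cell surface, averaged 138 ± 56.4 CPM in fat LYVE1+ and 501 ± 213 CPM in fat LYVE1- cells (adjusted p = 0.00905, log2 fold change -1.86, SE 0.35). Lrp1, an endocytic receptor that clears MMP9 and MMP13, was 0.57 lower on the log2 scale in fat LYVE1+ cells (adjusted p = 0.0457) and 0.77 higher in LYVE1+ cells of aorta than of fat (adjusted p = 0.0132). The Furin call ended without fat LYVE1+ library 2 (adjusted p = 0.11) or 3 (0.1) or fat LYVE1- library 1 (0.068), and the Cd44 call without fat LYVE1+ library 2 (0.056) or 3 (0.054). When the fat groups were fitted alone, none of the 3 was called (adjusted p = 0.11 for Furin, 0.055 for Cd44 and 0.15 for Lrp1). The fat call of Lrp1 ended without any of 10 single libraries, at adjusted p of 0.052 to 0.2, without a filter (0.097) and with the prefix in the model (0.068). Between tissues, where 1.88% of all genes were called higher, its call ended without aorta LYVE1+ library 2 (0.056) or 3 (0.052) or fat LYVE1+ library 2 (0.061) or 3 (0.07), and when the groups compared were fitted alone (0.058).

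The plasminogen system, whose protease plasmin can activate several pro-MMPs, had 10 tested genes, of which 1 was called in any comparison. Plau, the urokinase that makes plasmin, was higher in the aorta than in fat in both sorts, as 1.88% of all genes were in LYVE1+ cells and 1.66% in LYVE1- cells. In LYVE1+ cells it averaged 64.2 ± 20.3 CPM in the aorta and 22 ± 3.18 CPM in fat (log2 fold change 1.53, SE 0.23, adjusted p = 0.00406). In LYVE1- cells it averaged 84.4 ± 3.42 CPM in the aorta and 31.9 ± 8.52 CPM in fat (log2 fold change 1.41, SE 0.23, adjusted p = 0.00732). The LYVE1+ call held without each single library. The LYVE1- call ended without fat LYVE1- library 3 (adjusted p = 0.051) and with the prefix in the model (log2 fold change 0.67, SE 0.33, adjusted p = 0.81). Between LYVE1+ and LYVE1- cells 0 of the 10 were called by edgeR's test, with 2 in the aorta and 4 in fat under an unadjusted p of 0.05, and DESeq2 called 1 (Anxa2, in fat).

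Of 15 tested ADAM and ADAMTS proteases, relatives of the MMPs that shed membrane proteins or cut proteoglycans and procollagen and that TIMP3 also inhibits in part, 2 were called higher in LYVE1+ than in LYVE1- cells of fat, where 1.82% of all genes were. Adam33 averaged 67.1 ± 14.6 CPM in fat LYVE1+ and 33.1 ± 6.76 CPM in fat LYVE1- cells (adjusted p = 0.00793, log2 fold change 1.02, SE 0.18), and was not called when the fat groups were fitted alone (0.073). Adam15, a membrane-anchored ADAM, averaged 784 ± 79.8 CPM in fat LYVE1+ and 481 ± 65.3 CPM in fat LYVE1- cells (adjusted p = 0.0184, log2 fold change 0.70, SE 0.15), and this call ended without fat LYVE1+ library 2 (0.099) or 3 (0.1) or fat LYVE1- library 1 (0.055) or 3 (0.089) and when the fat groups were fitted alone (0.12). Between tissues, 2 of the 15 were called higher in the aorta in LYVE1+ cells, against 1.88% of all genes, and 1 in LYVE1- cells, against 1.66%. Adam33 was higher in the aorta by 1.70 (SE 0.19, adjusted p = 0.000651) in LYVE1- cells and by 0.79 (adjusted p = 0.0345) in LYVE1+ cells. With the prefix in the model those values were 1.51 (adjusted p = 0.42) and 0.73 (adjusted p = 0.12), and the LYVE1+ call also ended without any of 8 single libraries, at adjusted p of 0.05 to 0.13, and when those groups were fitted alone (0.072). Adamts2, a procollagen N-propeptidase, averaged 29.5 ± 20.9 CPM in aorta LYVE1+ and 5.71 ± 4.39 CPM in fat LYVE1+ cells (adjusted p = 0.0425, log2 fold change 2.44, SE 0.58). Its call ended without any of 9 single libraries, at adjusted p of 0.05 to 0.17, with those groups fitted alone (0.11) or with the prefix (0.076). Adamts2 moved with the sum of the fibroblast markers given above, which was mostly Col1a1, Col1a2 and Col3a1. In the aorta none of the 15 was called between LYVE1+ and LYVE1- cells, with 3 under an unadjusted p of 0.05 and 2 called by DESeq2 (Adam15 and Adamts12).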

How the data were processed

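RNA of 12 libraries was made into cDNA by Smart-seq2 from 2 ng of RNA with ERCC spike-in and read as pairs of 51 cycles, per the labels' protocols. The authors aligned reads to GRCm38 with STAR 2.5.2b, counted them per gene with featureCounts 1.5.0 and used edgeR 3.14.0, per the submitters' processing notes. Which annotation release, filters and strand setting they used is not given in the sources used here. The deposited counts are whole numbers per gene. The deposited log2 CPM equal edgeR's log2 CPM of these counts with TMM scaling and a prior count of 0.25 (largest difference 4.97e-14 over 25331 genes), and served only for that check.

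From the counts, edgeR 4.0.16 (R 4.3.3, limma 3.58.1) gave TMM factors of 0.96 to 1.04, and filterByExpr kept 14216 genes (cutoff 0.806 CPM). Of the 9 members kept, 6 reached that cutoff in all 12 libraries. A quasi-likelihood fit of all 12 libraries, with a mean per group and 8 residual degrees of freedom, tested 5 comparisons with Benjamini-Hochberg adjustment. SEs are the fold change divided by the square root of F. The fit was tested on simulated counts. Replicates differed beyond counting noise. Intervals and the 3-count limit cover counting error only. Exon lengths come from GENCODE M21 and promoters from RefSeq.

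Replicate numbers come from the sample descriptions. Deviations from group means of equal-numbered libraries correlated at 0.184 to 0.486 in fat, where every pair was above 0.1. Fat libraries 2 and 3 of unequal number also correlated, at 0.192 and 0.225, so pairing by number is not shown. The main fit left the number out, and it entered only the replicate block.

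The members and lists were chosen with earlier results of these data known. All 10 members are named, and of each list the up to 4 called genes with the smallest adjusted p per comparison, or the 2 most abundant where none was called; genes outside this rule, named beside a DESeq2 count or a marker sum, were chosen after their values were seen. Alternatives were DESeq2 size factors, DESeq2 1.42.0, no filter, only the compared groups, each library left out, both fat libraries numbered 1 left out, the library prefix as covariate and a replicate block.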

Additional observations from a re-analysis of the deposited data

How the results depend on the processing

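Of the values of the 9 tested genes under the alternatives, 147 of 171 kept their direction and side of the threshold for LYVE1+ against LYVE1- cells in the aorta, 151 of 171 in fat, 166 of 171 for aorta against fat in LYVE1+ cells, 158 of 171 in LYVE1- cells and 154 of 162 for the interaction. The number of genes called in the aorta, 2, was 4 with only the compared groups, 4 without both fat libraries numbered 1, 0 with the library prefix and 0 to 3 without single libraries. In fat, 2 became 4 with DESeq2 and 4 without a filter (Mmp12 and Mmp19 in addition), 0 with only the compared groups and 0 to 4 without single libraries. Between tissues, 0 in LYVE1+ cells became 3 without a filter, and 0 in LYVE1- cells became 1 with DESeq2, 2 without a filter, 1 with only the compared groups, 3 without both fat libraries numbered 1 and 0 to 1 without single libraries. The interaction called 0 throughout. The causes were not tested.

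With the replicate block, 2 genes were called in the aorta, 3 in fat (Mmp12 in addition), 0 in each comparison of tissues and 0 in the interaction, and over all genes 77 calls in the aorta became 243 and 558 in fat became 915. Outside fat, deviations of equal-numbered libraries correlated at -0.17 to -0.044 in the aorta, -0.201 to 0.027 across tissues in LYVE1+ cells and 0.032 to 0.202 in LYVE1- cells.

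Over all genes, the aorta calls were 360 with DESeq2, 336 without a filter, 294 with only the compared groups, 566 without both fat libraries numbered 1, 2 with the prefix and 23 to 210 without single libraries. The 558 fat calls were 1005 with DESeq2, 206 with only the compared groups, 887 without both fat libraries numbered 1 and 219 to 1025 without single libraries. For aorta against fat, the 426 calls in LYVE1+ cells became 922 with DESeq2, 820 without a filter, 243 with only the compared groups, 181 with the prefix, 890 without both fat libraries numbered 1 and 172 to 538 without single libraries, and the 353 calls in LYVE1- cells became 847 with DESeq2, 647 without a filter, 1024 without both fat libraries numbered 1, 7 with the prefix and 98 to 531 without single libraries. The 22 interaction calls became 103 with DESeq2, 72 without a filter, 84 without both fat libraries numbered 1, 0 with the prefix and 0 to 47 without single libraries.

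Direction turned only for values that were not called. Timp1 (log2 fold change) turned to 0.32 with the prefix and was -0.90 to 0.51 without single libraries in the aorta, and to -0.90 with the prefix between tissues in LYVE1- cells. Without single libraries, ranges were -0.92 to 0.14 for Mmp2 and -0.20 to 0.78 for Timp3 in fat, -0.08 to 1.21 for Mmp14 and -0.36 to 0.11 for Mmp19 between tissues in LYVE1+ cells, and -0.57 to 0.68 for Timp1 in LYVE1- cells. In the interaction, Mmp2 turned to -0.37 without both fat libraries numbered 1 and to -0.17 with the replicate block, and without single libraries the ranges were -0.54 to 0.57 for Mmp2, -1.46 to 0.07 for Mmp14 and -0.15 to 2.36 for Timp1. Requiring all 3 libraries above 1 CPM changed the 9 genes to 7 in aorta LYVE1+ and 7 in fat LYVE1+ cells, and a threshold of 2 CPM left 8 in fat LYVE1+ cells. Mmp8, Timp1, Mmp13 and Mmp14 had few reads in some libraries, which limits their precision there.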

Other observations

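Proteases of other classes that degrade elastin and collagen, with their inhibitor cystatin C, gave 8 tested genes. Ctsl, a lysosomal cysteine protease, was higher in LYVE1+ than in LYVE1- cells of fat, with 658 ± 254 CPM in fat LYVE1+ and 291 ± 76.2 CPM in fat LYVE1- cells (adjusted p = 0.0326, log2 fold change 1.18, SE 0.28, edgeR's quasi-likelihood test with Benjamini-Hochberg adjustment). That call ended without any of 9 single libraries, at adjusted p of 0.051 to 0.17, and with the fat groups fitted alone (0.15). It was the only one of the 8 called there, where 1.82% of all genes were called higher. Cst3, which encodes cystatin C, averaged 3020 ± 343 CPM in aorta LYVE1- and 1920 ± 191 CPM in fat LYVE1- cells (adjusted p = 0.045, log2 fold change 0.66, SE 0.16), and this call ended without any of 11 single libraries, at adjusted p of 0.07 to 0.18, and without a filter (0.12), with the LYVE1- groups fitted alone (0.091) or with the prefix in the model (0.83).

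Among 18 tested inducers and transcription factors of MMP genes, Tnf and Il4ra were called, 1 of 18 in each comparison of tissues, where 3% of all genes were called in LYVE1+ cells and 2.48% in LYVE1- cells. Tnf, an inflammatory cytokine known to induce Mmp9 and Mmp13, averaged 657 ± 483 CPM in aorta LYVE1+ and 111 ± 49.7 CPM in fat LYVE1+ cells (adjusted p = 0.0209, log2 fold change 2.58, SE 0.52). The call ended without aorta LYVE1+ library 3 (1.82, adjusted p = 0.076) or fat LYVE1+ library 2 (0.089) or 3 (0.086), with the LYVE1+ groups fitted alone (0.056) or with the prefix in the model (0.075). Il4ra, a receptor subunit for IL-4 and IL-13, averaged 565 ± 52.4 CPM in aorta LYVE1- and 326 ± 24.1 CPM in fat LYVE1- cells (adjusted p = 0.0298, log2 fold change 0.79, SE 0.17). The call ended without any of 7 single libraries, at adjusted p of 0.053 to 0.12, and with the prefix in the model the value was 0.28 (adjusted p = 0.94). Between LYVE1+ and LYVE1- cells 0 of the 18 were called by edgeR or DESeq2 in either tissue, with 1 in the aorta and 2 in fat under an unadjusted p of 0.05.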
